A study of Bos taurus with 31 samples.

Results

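The genes described here are core genes of the circadian clock and its output factor DBP in liver biopsies of dairy cows. The list held 10 symbols, namely ARNTL, CLOCK, NPAS2, PER1, PER2, PER3, CRY1, NR1D1, NR1D2 and DBP, and a gene was taken where the symbol stood in the gene label of the raw count table. Of these 10 genes, 9 had 1 row each among 24616 rows, and all 9 were among the 15916 genes that reached 20 reads in sum and entered every test. PER3 had no row under this symbol and was not analysed here. Liver RNA of 31 lactating German Holstein cows was sequenced, with 1 library per cow. The control (CON) ration with a high concentrate feed proportion (HC) was fed to 8 cows (CONHC), and the control ration with a low proportion (LC) to 8 cows (CONLC). Glyphosate (GLY) contaminated rations were fed with a high proportion to 8 cows (GLYHC) and with a low proportion to 7 cows (GLYLC). Ages are not given in the sources used here, and neither is the time of day at which each biopsy was taken. Each cow was biopsied in vivo and gave whole liver tissue, so that fewer cells of a type and less RNA per cell cannot be told apart.

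The clock is a loop of regulators of transcription that turns over about once a day in nearly every cell. ARNTL (also called BMAL1) pairs with CLOCK, or with its relative NPAS2, and switches on the PER and CRY genes, whose products then block that same pair. A second loop runs through NR1D1 and NR1D2 (REV-ERB alpha and beta), which are switched on by the ARNTL pair and repress ARNTL, CRY1 and other genes. DBP is an output factor that carries the rhythm to genes of liver metabolism. In rodent liver over the day, the level of ARNTL RNA runs opposite to that of NR1D1 and DBP. A single biopsy per cow gives 1 point of that cycle, and no rhythm can be fitted to these data.

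The reads assigned to genes numbered 11675775 in the shallowest and 36675542 in the deepest library (median 19781078). Levels are given in CPM, the reads of a gene per set number of assigned reads of that cow, with library sizes scaled by the TMM method of edgeR. The hepatocyte markers ALB, APOA1, APOB, TTR, CYP2E1 and SERPINA1 were detected in every cow. The sum of 4 intestinal epithelium markers was between 0.485 and 1.74 CPM in the cows of the other groups but reached 272 CPM in GLYLC cow 912. The main tests of the clock genes on which this library bears are therefore also given without it. Reads of NR1D1 need care for another reason. In RefSeq the thyroid hormone receptor gene THRA overlaps NR1D1, and whether counting used strand is not given in the sources used here, so reads of the overlap cannot be told apart. RefSeq also lists an overlapping gene for CRY1, for NPAS2 and for PER2, each named only by a locus number. Those overlaps were not examined. The CPM of THRA correlated with that of NR1D1 (r = 0.52, permutation p = 0.00266; Spearman rho = 0.52, permutation p = 0.00261, n = 31 cows), with that of CRY1 (r = -0.42, permutation p = 0.0201; rho = -0.41, permutation p = 0.0207) and with that of ARNTL at r = -0.22 (permutation p = 0.236; rho = -0.25, permutation p = 0.180).

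The first question was whether the feed changed clock gene levels. ARNTL (ENSBTAG00000013029), the partner shared by both activator pairs, was detected in all 31 cows with 23 to 228 reads. Its lowest, median and highest level was 2.01, 5.12 and 8.16 CPM in CONHC, 3.46, 4.60 and 7.53 CPM in CONLC, 1.64, 3.25 and 4.32 CPM in GLYHC, and 2.31, 2.57 and 9.11 CPM in GLYLC. The ranges of all 4 groups overlapped, although all 8 GLYHC cows lay under the CONHC median. The mean was 2.92 ± 0.973 CPM (SD, n = 8) in GLYHC and 4.81 ± 2.01 CPM (SD, n = 8) in CONHC. This difference of -0.72 on the log2 scale (SE 0.29) had an unadjusted p of 0.0199 and an adjusted p of 1 over all genes (quasi-likelihood test of edgeR, Benjamini-Hochberg), so that it did not pass. Over all cows with CFP as a covariate, the log2 difference between GLY and CON cows in ARNTL was -0.55 (SE 0.21, unadjusted p = 0.0120, edgeR adjusted p = 0.968). GLYLC cow 102 had the highest ARNTL level of all cows, and without it this difference was -0.73 with an unadjusted p of 0.000372 and an edgeR adjusted p of 0.417. That was the most extreme of 31 fits that each left out 1 cow. In these fits the difference lay between -0.73 and -0.47 (unadjusted edgeR p from 0.000372 to 0.0292). Between GLYHC and CONHC it lay between -0.83 and -0.55 (unadjusted edgeR p from 0.00731 to 0.0705).

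CLOCK (ENSBTAG00000044044), the partner of ARNTL in the activator pair, lay between 1.30 and 3.91 CPM with 19 to 83 reads per cow, and group means were between 1.76 CPM in GLYHC and 2.20 CPM in CONLC. NPAS2 (ENSBTAG00000019697), which can take the place of CLOCK, had only 5 to 39 reads per cow, and counting error alone would give 45.7% of its variance between cows. Its mean was 0.805 ± 0.400 CPM (SD, n = 8) in CONHC and 1.22 ± 0.284 CPM (SD, n = 8) in CONLC. Of the CONHC cows, 6 of 8 lay under the CONLC median, and the log2 difference of -0.59 (SE 0.25) had an unadjusted p of 0.0255 and an edgeR adjusted p of 0.775.

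Among the repressors, CRY1 (ENSBTAG00000010149) had, like ARNTL, its lowest group mean in GLYHC. Its lowest, median and highest level was 1.82, 4.12 and 5.21 CPM in CONHC, 1.86, 3.17 and 6.25 CPM in CONLC, 1.79, 2.27 and 3.92 CPM in GLYHC, and 2.11, 3.29 and 5.66 CPM in GLYLC. All 8 GLYHC cows lay under the CONHC median here too, and the ranges overlapped. The log2 difference between GLYHC and CONHC in CRY1 was -0.60 (SE 0.24, unadjusted p = 0.0166, edgeR adjusted p = 1). PER1 (ENSBTAG00000003889) ranged from 18.0 to 84.7 CPM, and both ends of that range were GLYLC cows. PER2 (ENSBTAG00000001879) ranged from 3.41 to 10.1 CPM, with group means between 6.41 and 7.83 CPM. Neither period gene had an unadjusted p under 0.05 in any comparison.

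NR1D1 (ENSBTAG00000012178), the repressor of ARNTL, differed most between cows. Its lowest, median and highest level was 5.98, 12.5 and 20.3 CPM in CONHC, 8.31, 15.9 and 36.5 CPM in CONLC, 10.7, 18.2 and 42.5 CPM in GLYHC, and 6.26, 16.0 and 35.9 CPM in GLYLC. In GLYHC, 7 of 8 cows lay above the CONHC median. The log2 difference between GLYHC and CONHC in NR1D1 was 0.68 (SE 0.34, unadjusted p = 0.0551, edgeR adjusted p = 1), and it was 0.42 without GLYHC cow 131, the cow at 42.5 CPM. NR1D2 (ENSBTAG00000018024), the closely related second repressor, had group means between 18.6 CPM in CONLC and 23.3 CPM in GLYHC. Between GLYHC and GLYLC the log2 difference in NR1D2 was 0.29 (SE 0.14, unadjusted p = 0.0451, edgeR adjusted p = 0.385), with 6 of 8 GLYHC cows above the GLYLC median. DBP (ENSBTAG00000006754), the output factor, had means of 50.5 CPM in CONHC, 52.1 CPM in CONLC, 63.0 CPM in GLYHC and 56.3 CPM in GLYLC. The log2 difference between GLYHC and CONHC in DBP was 0.32 (SE 0.16, unadjusted p = 0.0616, edgeR adjusted p = 1).

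Calls needed a p below 0.05 that was also below 0.1 after adjustment over all genes. None of the 9 clock genes was called (0 of 9 in each comparison, edgeR), and DESeq2 on all cows called 0 of 9 as well. The share of all 15916 genes called was 0% between CONHC and CONLC, 0.201% between GLYHC and GLYLC, 0% between GLYHC and CONHC, 0.0628% between GLYLC and CONLC, 0% for the interaction of GLY and CFP, 1.45% for HC against LC over all cows and 0% for GLY against CON over all cows. Without GLYLC cow 912, 7 genes were called between CONHC and CONLC (0 with it), 0 between GLYHC and GLYLC (32 with it), 0 between GLYLC and CONLC (10 with it) and 136 for HC against LC over all cows (231 with it). At an unadjusted p under 0.05, the clock genes numbered 1 (NPAS2) between CONHC and CONLC, 1 (NR1D2) between GLYHC and GLYLC, 2 (ARNTL and CRY1) between GLYHC and CONHC, 0 between GLYLC and CONLC, 0 for the interaction, 0 for HC against LC over all cows and 1 (ARNTL) for GLY against CON over all cows. Over all genes that share was 5.96% between CONHC and CONLC, 12.5% between GLYHC and GLYLC, 2.92% between GLYHC and CONHC, 5.65% between GLYLC and CONLC, 4.21% for the interaction, 13.7% for HC against LC and 3.92% for GLY against CON over all cows. The pairwise comparisons share groups of cows, so their values are not independent. The interaction with the smallest unadjusted p was that of CRY1, at -0.58 (SE 0.34) on the log2 scale, with an unadjusted p of 0.0987 and an edgeR adjusted p of 0.999.

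**Figure D1:**
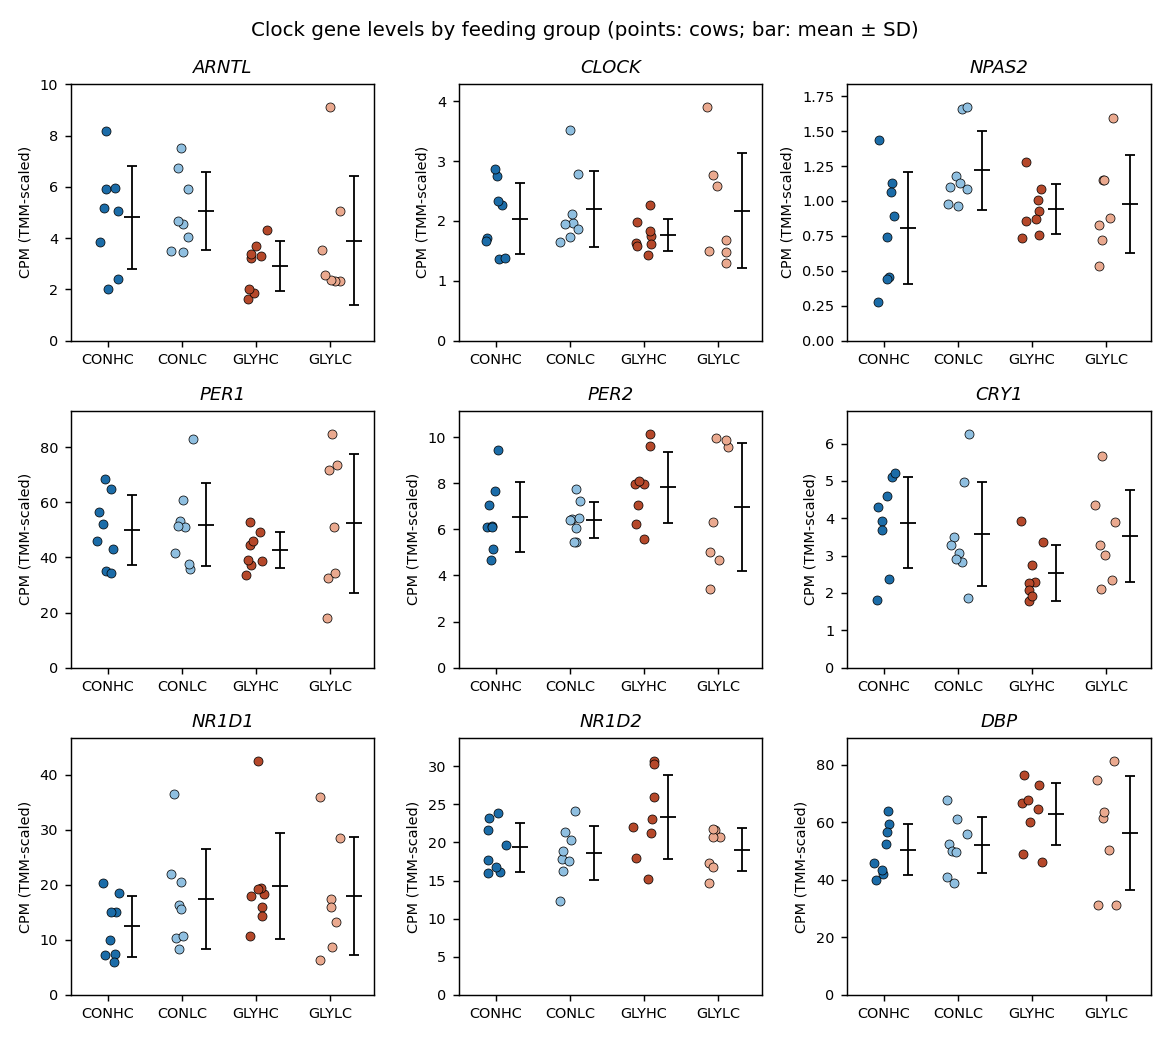
Level of each of the 9 clock genes in CPM (vertical axis, from 0) for the 4 feeding groups (horizontal axis), with 1 point per cow and a bar for the mean ± SD. The groups overlap for every gene. The GLYHC points of ARNTL end at 4.32 CPM, and the single GLYLC point at 9.11 CPM is cow 102.

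Other components of the clock were compared over the feeding groups as well. Of 17 further clock components, 14 were tested, and 0 of 14 were called in each of the 7 comparisons. Of these 14, 2 had an unadjusted edgeR p under 0.05 between GLYHC and GLYLC, beside 12.5% of all genes. For HC against LC over all cows 2 did, beside 13.7%, and between GLYHC and CONHC 1 did, beside 2.92%. The other comparisons had 0. TEF, a factor closely related to DBP, had an unadjusted p under 0.05 in 3 of the 7 comparisons. Its mean was 14.1 ± 3.19 CPM (SD, n = 8) in GLYHC and 10.1 ± 3.15 CPM (SD, n = 7) in GLYLC, a log2 difference of 0.49 (SE 0.16, unadjusted p = 0.00515, edgeR adjusted p = 0.215). BHLHE40, a repressor that competes with the ARNTL pair, had means of 61.7 ± 29.3 CPM (SD, n = 8) and 41.0 ± 8.45 CPM (SD, n = 7) in these groups, a log2 difference of 0.59 (SE 0.20, unadjusted p = 0.00558, edgeR adjusted p = 0.219). Of 10 genes that the clock is known to drive in liver, 0 were called in any of the 7 comparisons.

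The second question was how the clock genes varied from cow to cow. The largest level was 7.11 times the smallest for NR1D1, 6.09 times for NPAS2, 5.57 times for ARNTL, 4.70 times for PER1, 3.50 times for CRY1, 3.01 times for CLOCK, 2.98 times for PER2, 2.60 times for DBP and 2.48 times for NR1D2. Within groups, the biological coefficient of variation estimated by edgeR was 0.460 for NR1D1 and 0.391 for ARNTL, against a median of 0.222 over all genes. These values stood at the 82.3 and 77.1 percentile of all genes. That of NR1D2, at 0.191, stood at the 40.2 percentile.

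Along the cows, ARNTL, CRY1 and CLOCK went together, and NR1D1 and DBP went the other way. GLYLC cow 102 had the highest level of ARNTL (9.11 CPM) and of CLOCK (3.91 CPM) and the second highest of CRY1 (5.66 CPM, after 6.25 CPM in CONLC cow 60). In that cow NR1D1 was at 6.26 CPM and DBP at 31.2 CPM, the lowest DBP level of all. CONHC cow 7 came next, with ARNTL at 8.16 CPM, CRY1 at 4.58 CPM and the lowest NR1D1 level of all cows, 5.98 CPM. At the other end, GLYHC cow 32 had the lowest levels of ARNTL (1.64 CPM) and CRY1 (1.79 CPM) of all cows, and DBP at 72.9 CPM. Its NR1D1 level, however, was 16.0 CPM, the median of all cows, and its CLOCK level of 2.27 CPM lay above the median of 1.82 CPM. GLYHC cow 131, next in ARNTL at 1.85 CPM, had CRY1 at 2.28 CPM and the highest NR1D1 level, 42.5 CPM. Another exception was CONLC cow 145, in which NR1D1 stood at 36.5 CPM with ARNTL at 4.65 CPM. The log2 ratio of ARNTL to NR1D1 ran from -3.15 to 0.44 in CONHC (median -1.15), from -2.95 to -0.14 in CONLC (median -1.86), from -4.45 to -1.30 in GLYHC (median -2.54) and from -3.90 to 0.54 in GLYLC (median -2.33). Every feeding group thus held cows over a wide stretch of this scale.

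**Figure D2:**
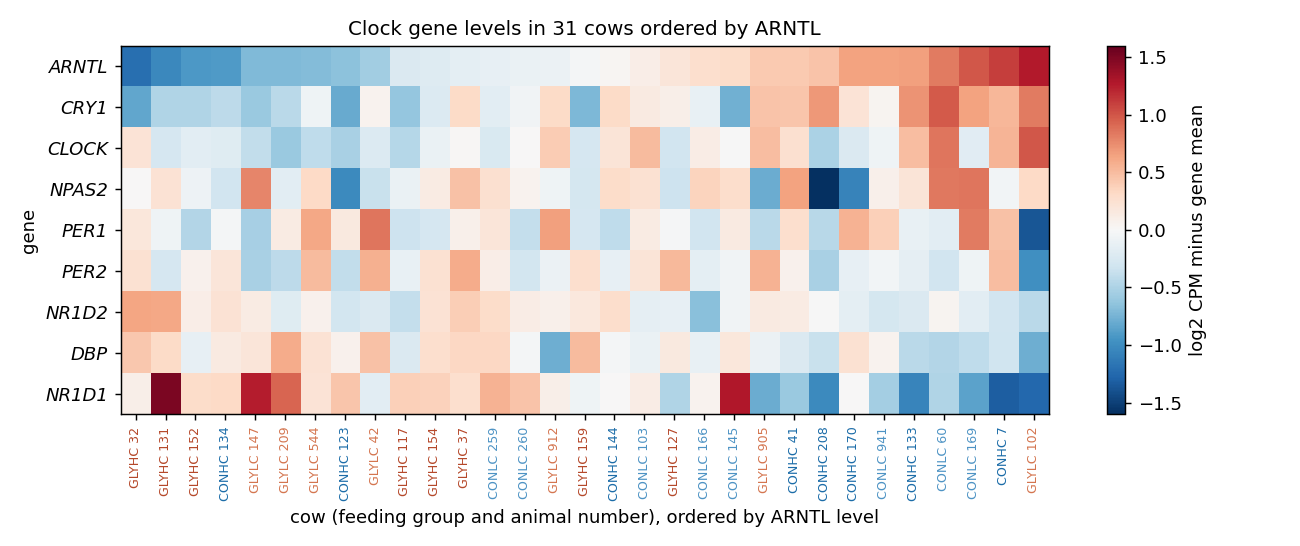
Level of the 9 clock genes (rows) in the 31 cows (columns, named by feeding group and animal number, and ordered by ARNTL), as log2 CPM minus the mean of that gene, with red for high and blue for low. CRY1 and CLOCK turn from blue to red with ARNTL from left to right, NR1D1 and DBP turn from red to blue, and PER1, PER2 and NPAS2 show no such order. The right-most column is GLYLC cow 102 with ARNTL at 9.11 CPM.

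Pearson correlations of log2 CPM were computed for all 36 pairs of the 9 genes over 31 cows, with two-sided permutation tests. ARNTL correlated with CRY1 at r = 0.77 (permutation p = 1e-05, the smallest that 100000 resamples can give) and rho = 0.77 (permutation p = 1e-05). Both genes were on the same side of their feeding group mean in 26 of 31 cows. After the feeding group means were removed r was 0.75, and without the 2 cows farthest from the median of ARNTL it was 0.71. ARNTL correlated with NR1D1 at r = -0.73 (permutation p = 1e-05) and rho = -0.76 (permutation p = 1e-05), with the genes on opposite sides of the group mean in 23 of 31 cows. CRY1 and NR1D1 gave r = -0.77 (permutation p = 1e-05) and rho = -0.76 (permutation p = 1e-05). Without the 2 cows farthest from the median of the first gene, r was -0.74 for ARNTL with NR1D1 and -0.82 for CRY1 with NR1D1.

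DBP joined the NR1D1 arm. It correlated with ARNTL at r = -0.62 (permutation p = 0.0002; rho = -0.62, permutation p = 0.00031), with CRY1 at r = -0.67 (permutation p = 5e-05; rho = -0.63, permutation p = 0.00015), with CLOCK at r = -0.62 (permutation p = 0.0002; rho = -0.52, permutation p = 0.00311) and with NR1D1 at r = 0.59 (permutation p = 0.0004; rho = 0.54, permutation p = 0.00196). CLOCK joined the ARNTL arm, with r = 0.56 to ARNTL (permutation p = 0.00096; rho = 0.51, permutation p = 0.00351) and r = 0.61 to CRY1 (permutation p = 0.00024; rho = 0.56, permutation p = 0.00135). CLOCK and NR1D1 gave r = -0.52 (permutation p = 0.00269; rho = -0.47, permutation p = 0.00791). NR1D2 correlated with ARNTL at r = -0.52 (permutation p = 0.00239; rho = -0.48, permutation p = 0.00692), which was -0.39 without the 2 farthest cows. NR1D2 correlated with CRY1 at only r = -0.24 (permutation p = 0.204; rho = -0.22, permutation p = 0.239).

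The period genes and NPAS2 had correlations with ARNTL, CLOCK, CRY1 and NR1D1 that were smaller in size than those among these 4 genes. Every r of PER1 or PER2 with ARNTL, CLOCK, CRY1 or NR1D1 lay between -0.24 and 0.03. PER1 and PER2 correlated with each other at r = 0.49 (permutation p = 0.00473, and rho = 0.40, permutation p = 0.0289), but r was 0.23 without the 2 cows farthest from the median of PER1. The pooled value thus depended in part on those cows, and without any 1 cow it lay between 0.32 and 0.57. With feeding group means removed r was 0.60, and within groups it was 0.54 in CONHC, 0.48 in CONLC, 0.42 in GLYHC and 0.69 in GLYLC. PER2 and DBP gave r = 0.39 (permutation p = 0.0277; rho = 0.36, permutation p = 0.0456), which was 0.21 without the 2 cows farthest from the median of PER2. PER1 and DBP gave r = 0.24 (permutation p = 0.197; rho = 0.20, permutation p = 0.269), which was 0.34 with group means removed and -0.08 without the 2 cows farthest from the median of PER1. The slope of PER1 on DBP was 0.32 (edgeR adjusted p = 0.482), and without GLYLC cow 912 it was 0.76 (unadjusted p = 0.00661, edgeR adjusted p = 0.159), which was not called. The highest r of NPAS2 was with CLOCK, at 0.35 (permutation p = 0.0502, and rho = 0.39, permutation p = 0.0290). In all, 11 of the 36 pairs had an r of at least 0.5 in size, beside 3.97% of all pairs of tested genes. With feeding group means removed these values were 11 and 4.79%, but the pairs were not all the same. ARNTL with NR1D2 then fell short of the limit at r = -0.43, and PER1 with PER2 passed it at 0.60.

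**Figure D3:**
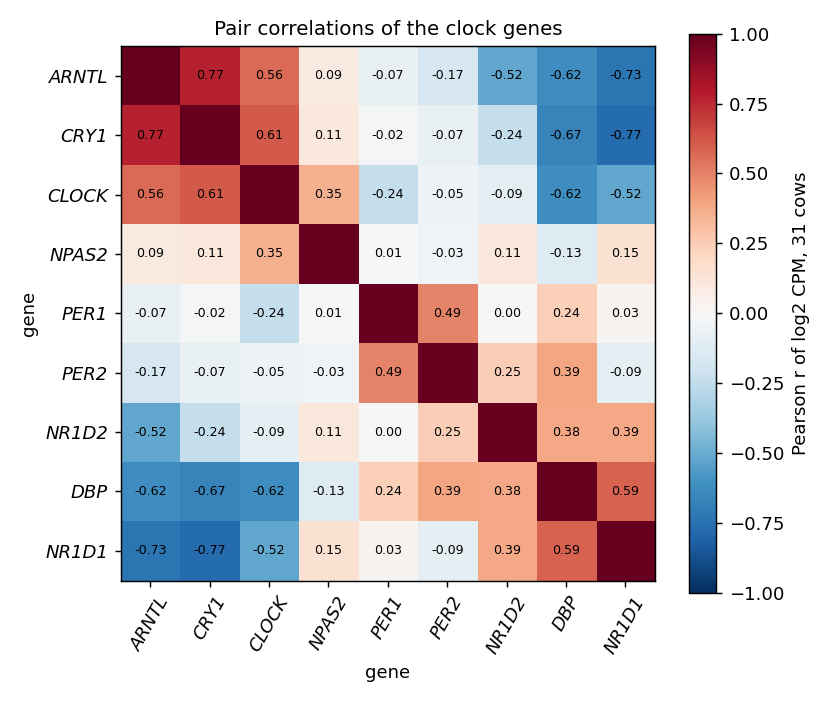
Pearson r of log2 CPM over 31 cows for each pair of the 9 clock genes (both axes), with red for positive and blue for negative values and r printed in each cell. ARNTL, CRY1 and CLOCK form a red block, DBP and NR1D1 are blue against it, and the cells of NPAS2, PER1 and PER2 are pale except for PER1 with PER2 (r = 0.49).

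Within single feeding groups of 7 or 8 cows, r is given as a description. For ARNTL and CRY1 it was 0.85 in CONHC, 0.65 in CONLC, 0.55 in GLYHC and 0.91 in GLYLC. For ARNTL and NR1D1 it was -0.83, -0.74, -0.57 and -0.87 in the same order of groups. Both relations thus had the same sign in all 4 groups. Other pairs were weak or reversed in GLYHC. In the same order of groups, CRY1 gave -0.86, -0.84, -0.19 and -0.97 with NR1D1. With DBP, CRY1 gave -0.74, -0.85, -0.01 and -0.76. CLOCK gave 0.56, 0.53, 0.03 and 0.94 with CRY1, and -0.56, -0.20, -0.09 and -0.86 with NR1D1. With DBP, CLOCK gave -0.51, -0.59, 0.53 and -0.88. For ARNTL and CLOCK r was 0.57 in CONHC, 0.22 in CONLC, -0.46 in GLYHC and 0.96 in GLYLC. For NR1D1 and DBP it was 0.90, 0.73, -0.02 and 0.59. For ARNTL and DBP it was -0.58, -0.72, -0.03 and -0.77. Whether the groups differ in these relations was not tested.

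**Figure D4:**
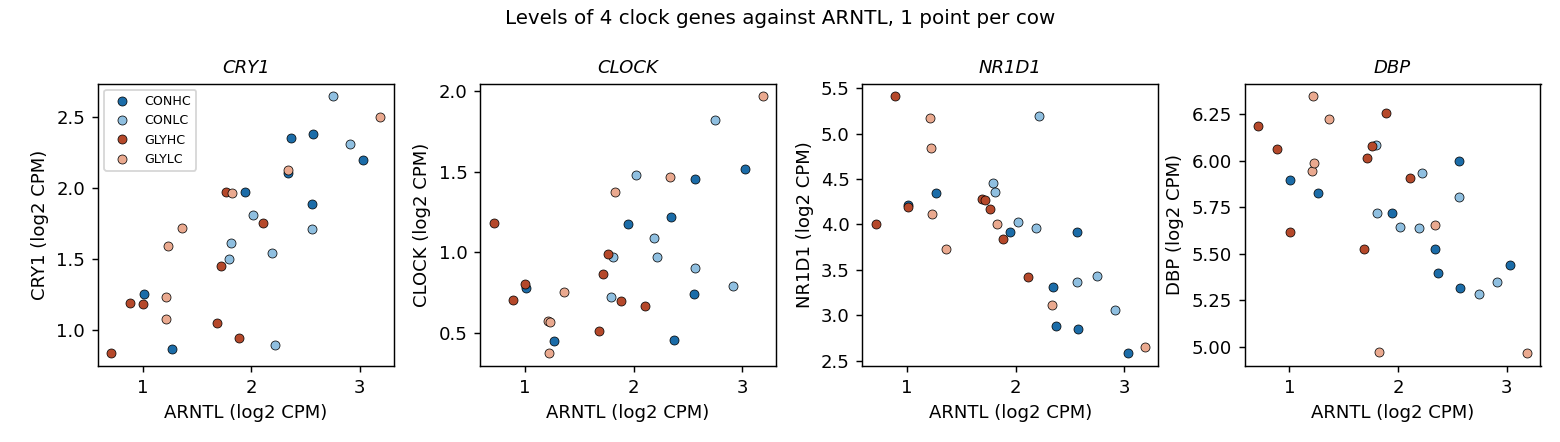
Levels of CRY1, CLOCK, NR1D1 and DBP (vertical axes, log2 CPM) against ARNTL (horizontal axes, log2 CPM), with 1 point per cow coloured by feeding group. CRY1 and CLOCK are higher where ARNTL is higher (r = 0.77 and 0.56), NR1D1 and DBP are lower there (r = -0.73 and -0.62), while within GLYHC alone r is -0.46 for CLOCK and -0.03 for DBP.

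To read these relations against the rest of the transcriptome, the level of ARNTL was entered beside the 4 feeding groups in an edgeR model of every other gene. The slope is the log2 change of a gene per log2 unit of ARNTL. Only 4 of 15915 genes were called in this model (0.0251%), and 2 of them were clock genes of the list. CRY1 had a slope of 0.64 (SE 0.11, edgeR adjusted p = 0.00883) and NR1D1 a slope of -0.97 (SE 0.16, edgeR adjusted p = 0.00737). The third was CIART, a repressor of the ARNTL pair, with a slope of -1.03 (SE 0.20, edgeR adjusted p = 0.0710). The fourth, ENSBTAG00000040568, carries no symbol in the table and had a slope of 0.28 (SE 0.04, edgeR adjusted p = 0.00737). CRY1 and NR1D1 were called in 31 of 31 fits that each left out 1 cow, with an adjusted p of at most 0.0529. CLOCK had a slope of 0.39 (SE 0.12), DBP of -0.34 (SE 0.09) and NR1D2 of -0.21 (SE 0.08). Their edgeR adjusted p was 0.323, 0.291 and 0.464, and they were not called. The slopes of NPAS2 (0.08, SE 0.17), PER1 (-0.09, SE 0.16) and PER2 (0.01, SE 0.12) were smaller than their errors.

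Of the other clock components 1 was called with ARNTL. Of the 14 tested, 0 rose and 1 (CIART) fell with ARNTL, and 4 had an unadjusted p under 0.05, beside 8.41% of all genes. CRY2, the second cryptochrome, had a slope of -0.44 (SE 0.10, unadjusted p = 0.000115, edgeR adjusted p = 0.165), opposite in sign to CRY1. TEF had a slope of -0.34 (SE 0.08, edgeR adjusted p = 0.230) and BHLHE40 of -0.27 (SE 0.11, edgeR adjusted p = 0.506). The kinase gene CSNK1D had a slope of -0.01 (SE 0.04). The median slope was 0.02 over these 14 genes and -0.00357 over all genes.

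**Figure D5:**
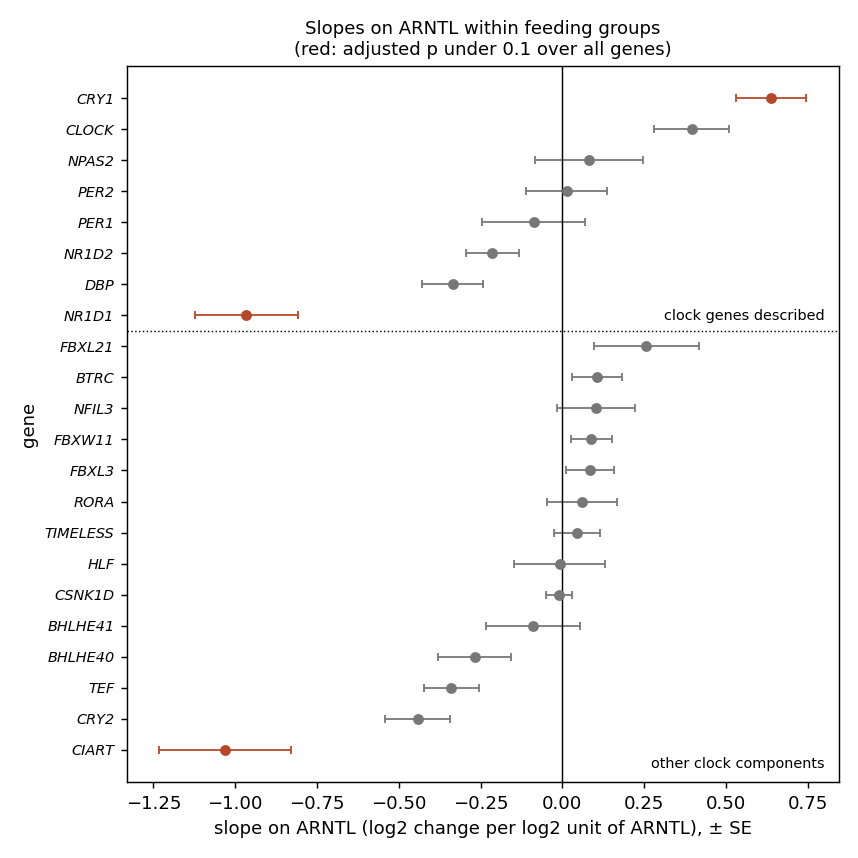
Slope on ARNTL (horizontal axis, log2 change per log2 unit of ARNTL, with feeding groups in the model) of 8 clock genes and 14 other clock components (vertical axis), with bars of ± SE and red for genes called over all genes. CRY1 (0.64) stands at the positive end and NR1D1 (-0.97) and CIART (-1.03) at the negative end, while PER1, PER2 and NPAS2 lie at 0 within their errors.

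The same model with NR1D1 in the place of ARNTL called 40 of 15915 genes (0.251%). ARNTL had a slope of -0.65 (SE 0.10, edgeR adjusted p = 0.00469) and CRY1 of -0.53 (SE 0.09, edgeR adjusted p = 0.0122), both also called in 31 of 31 fits without 1 cow. The repressors CIART with 0.91 (SE 0.17, edgeR adjusted p = 0.0323) and CRY2 with 0.37 (SE 0.08, edgeR adjusted p = 0.0699), rose with NR1D1. With CRY1 in that place 254 genes were called (1.6%). ARNTL had a slope of 0.93 (SE 0.16, edgeR adjusted p = 0.0105) and NR1D1 of -1.13 (SE 0.18, edgeR adjusted p = 0.00902). CLOCK (0.54, SE 0.14) and DBP (-0.44, SE 0.11) were called at an edgeR adjusted p of 0.0658 each, but in only 26 and 23 of the 31 fits without 1 cow. With CLOCK in that place ARNTL, CRY1, NR1D1 and DBP were called, beside 11.1% of all genes, and without GLYLC cow 102 only CRY1 was, with 871 genes called in all. With PER1, PER2, NR1D2 or NPAS2 in that place 0 of 8 clock genes were called, beside 0.182%, 0.0628%, 0.377% and 0% of all genes, and 1, 1, 2 and 0 of the 8 had an unadjusted p under 0.05. DESeq2 called 1 of 8 for PER1 and 1 of 8 for PER2. The shares above are those of edgeR, and the share of all genes called by DESeq2 is not given here, so these calls cannot be read against it.

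With DBP in the model 1789 of 15915 genes were called (11.2%). Without GLYLC cow 912, in which DBP was at 31.4 CPM, 322 genes were called (2.04%). With and without that cow 4 of 8 clock genes were called. CRY1 had a slope of -0.87 (SE 0.21, edgeR adjusted p = 0.0136), CLOCK of -0.76 (SE 0.19, edgeR adjusted p = 0.0142), ARNTL of -1.03 (SE 0.26, edgeR adjusted p = 0.0153) and NR1D1 of 1.14 (SE 0.32, edgeR adjusted p = 0.0301). Without cow 912 the edgeR adjusted p of these genes was 0.0432, 0.0505, 0.0395 and 0.0474. Without cow 102 that of ARNTL was 0.111, so that it was no longer called. CRY2 (0.94, SE 0.13, edgeR adjusted p = 0.000179) and TEF (0.65, SE 0.14, edgeR adjusted p = 0.00546) rose with DBP, and without cow 912 their edgeR adjusted p was 0.00236 and 0.0779.

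Genes most like ARNTL were ranked over 31 cows by r of log2 CPM with feeding group means removed, among 11081 genes with a symbol and a mean of at least 1 CPM. CRY1 stood first from the top (r = 0.75) and NR1D1 first from the bottom (r = -0.77). CLOCK stood at place 42 from the top, DBP at place 46 and NR1D2 at place 345 from the bottom. PER1 (r = -0.20) and PER2 (r = -0.04) stood far from both ends, at places 2366 and 4913 from the bottom. NPAS2 fell under the limit of 1 CPM and was not ranked. The genes after CRY1 were CEP95 (0.67), ATMIN (0.67), LMO4 (0.65), REV3L (0.65), SPATA5 (0.65) and PHF11 (0.64). Those next to NR1D1 were CIART (-0.76), SREBF1 (-0.66), CRY2 (-0.66), OSGIN1 (-0.65), MID1IP1 (-0.65) and SND1 (-0.65), of which SREBF1 encodes a master regulator of lipid synthesis. Genes most like DBP were CRY2 (0.83), GCSH (0.78), HAGH (0.78) and NAGS (0.78). The lowest were ZCCHC6 (-0.77), XRN2 (-0.77), SFPQ (-0.76) and PRMT5 (-0.76), and all of these kept an r of at least 0.68 in size without GLYLC cow 912.

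Lists of other genes were set beside the clock genes in the ARNTL model. Of 10 genes that the clock is known to drive in liver 0 were called and 1 had an unadjusted p under 0.05, namely the glycogen synthase gene GYS2 (slope 0.41, SE 0.13, unadjusted p = 0.00352, edgeR adjusted p = 0.396). Of 7 glucocorticoid-responsive genes, which respond to the daily and stress hormone cortisol, 0 were called and 1 had an unadjusted p under 0.05. Their median slope was 0.18, and 6 of 7 slopes were positive. Of 7 immediate early genes 0 were called and 1 had an unadjusted p under 0.05, with 7 of 7 slopes negative and a median of -0.23. In the DBP model 2 of the 7 glucocorticoid-responsive genes, FKBP5 (slope -0.94, SE 0.28, edgeR adjusted p = 0.0401) and DUSP1 (slope -0.87, SE 0.24, edgeR adjusted p = 0.0288), fell with DBP, beside 11.2% of all genes called. Of the 10 clock-driven liver genes ALAS1 (slope 0.73, SE 0.17, edgeR adjusted p = 0.00836) and POR (slope 0.43, SE 0.13, edgeR adjusted p = 0.0494) rose and GYS2 (slope -0.75, SE 0.21, edgeR adjusted p = 0.0308) fell, of the 7 immediate early genes JUN fell (slope -0.85, SE 0.26, edgeR adjusted p = 0.0438), and 4 of 4 intestinal epithelium markers fell (smallest edgeR adjusted p = 1.22e-05). Without GLYLC cow 912, 0 of the 7 glucocorticoid-responsive genes, 0 of the 7 immediate early genes and 1 of the 10 clock-driven genes (ALAS1, slope 0.62, SE 0.18, edgeR adjusted p = 0.0944) were called, and 1 intestinal marker was left to test and was not called.

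Cell makeup and depth were read in the same cows. The log2 sum of the 6 hepatocyte markers correlated with ARNTL at r = 0.09 and with NR1D1 at r = -0.05, but with DBP at r = 0.37, and that of the 4 intestinal epithelium markers at -0.01, -0.01 and -0.44. With feeding group means removed, the r with DBP was 0.47 for the hepatocyte sum and -0.49 for the intestinal sum. The hepatocyte sum is mostly ALB, with group means from 101868 to 117355 CPM, while those of the other markers were at most 5931 CPM. The sums of the lists for cholangiocytes, macrophages, endothelium, stellate cells, lymphocytes and red blood cells had an r with ARNTL between -0.18 and 0.11. The log2 total count had an r of 0.02 with ARNTL and of 0.16 with DBP. CRY1 and NR1D1 were called as well when the hepatocyte markers or the log2 total count were added to the ARNTL model. With the hepatocyte markers in the DBP model 349 genes were called, 4 of the 8 clock genes among them, and the part of other cell types in the DBP results was not tested.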

How the data were processed

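The authors used FastQC and Trim Galore on the reads, HISAT2 2.1.0 for alignment to UMD3.1 and HTSeq 0.8.0 for the counting of unique alignments. They deposited the raw count of each gene per cow, and libraries came from a stranded mRNA kit. Whether counting used strand is not given in the sources used here. A deposited table of normalized values was not used. Of 24616 rows, 4961 carry no symbol. The test was the quasi-likelihood F test of edgeR 4.0.16 under R 4.3.3 (TMM scaling, 1 fit over all 4 groups, additive fits for the comparisons over all cows), on genes with at least 20 reads in sum. A gene was called at p under 0.05 and Benjamini-Hochberg adjusted p under 0.1. The SE is the log2 change divided by the square root of F. Slopes used log2 CPM with a prior count of 2. Slopes on ARNTL and DBP were planned, and those on the other 7 genes were added after seeing the data. Correlations used Python 3.11.15 with 100000 permutations, and their p is not adjusted over the 36 pairs. Cows were permuted across all 4 feeding groups, so that this p does not account for the groups. The slope models hold the groups and were adjusted over all genes. Scripts were tested on simulated data. DESeq2 1.42.0 and the other settings of the closing section were alternatives.

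The members and lists were chosen with earlier results of these data known. Named genes were all members, the other clock components, called or p under 0.05 genes of the lists, and the 6 highest and 6 lowest genes by r with ARNTL (4 and 4 for DBP). Of the other clock components, 1 gene is not reported here and is left out of the counts of that list. Each cow is 1 replicate. Overlapping genes were taken from RefSeq annotation of ARS-UCD2.0, of which no coordinate is given since the builds differ.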

Additional observations from a re-analysis of the deposited data

Results flagged for a closer look

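Each of the 9 genes was looked at in each of the 4 groups (36 combinations) for a cow whose level stood far from the rest by Dixon's criterion, which chance meets in about 1 in 20 groups. It was met in 2. In GLYLC, cow 102 had ARNTL at 9.11 CPM, and the next cow was at 5.06 CPM. In GLYHC, cow 131 had NR1D1 at 42.5 CPM, and the next cow was at 19.4 CPM. Without cow 102 the slope of CRY1 on ARNTL was 0.67 and that of NR1D1 was -0.96 (edgeR adjusted p = 0.0529 each). Without cow 131 the slope of NR1D1 on ARNTL was -0.90 (edgeR adjusted p = 0.0203).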

How the results depend on the processing

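The count of clock genes called was 0 in each of the 7 feeding comparisons under RLE and upper-quartile scaling, without a filter, with filterByExpr, in a robust fit, with DESeq2, with only the 2 compared groups where run, and without any 1 cow. The count for ARNTL (2 of 8) and DBP (4 of 8) slopes stayed within 1.5 times, at 3 for ARNTL with DESeq2, which also called DBP (adjusted p = 0.0690). Counts over all genes moved more. DESeq2 on all cows called 27 genes between CONHC and CONLC, 143 between GLYHC and GLYLC, 434 for HC against LC and 88 for the ARNTL slope, where adding hepatocyte markers gave 14 and leaving out the group term 16. Fits of only the 2 groups in edgeR called 0 between GLYHC and GLYLC. Without 1 cow the ARNTL slope gave 3 to 9 genes, the DBP slope 322 to 2229, the NR1D1 slope 2 to 618, the CRY1 slope 6 to 998, GLYHC against GLYLC 0 to 150, GLYLC against CONLC 0 to 41 and HC against LC 83 to 404. The cause was not tested. DESeq2 called 4 of 8 clock genes for the NR1D1 slope, adding CLOCK (adjusted p = 0.0530) and DBP (adjusted p = 0.0340). The share of all genes that DESeq2 called for this slope is not given here, so these calls cannot be read against it. With CRY1, leaving out CONHC 123, CONLC 60, GLYLC 102, GLYLC 147 or GLYLC 209 gave 2 of 8. The count over all genes in each of these fits is not given beyond the range of 6 to 998 for the CRY1 slope. No paired analysis was possible because the groups share no replicate numbers, which are animal numbers. Depth limits NPAS2 and CLOCK, with at most 39 and 83 reads per cow.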
